A study of Danio rerio with 12 samples.

Results

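The baseline gene expression of zebrafish embryos at 24 hours after fertilisation (24 hpf) was described from the 6 libraries of offspring of fed fathers, out of 12 libraries in the series. All 6 were chosen by their label alone, and the description asks which transcripts were most abundant, which tissues they mark, and which genes differed least and most between the 6 libraries. The fathers were fed males of the series, and the other 6 libraries came from offspring of starved males. Both groups were of the AB genotype, and in both the eggs came from wild-type females that had been fed and were fertilised outside the body. Each library was made from 1 to 3 whole embryos of a clutch, but the labels used here give neither the number of embryos in each library nor whether each library had its own father. The spread between libraries therefore holds differences between embryos and clutches as well as technical ones. In the descriptions, libraries of fed and starved fathers with the same replicate number carry the same code number. Replicates 5 and 6 share 1 code number and were kept as separate libraries.

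A 24 hpf zebrafish embryo has a segmented and twitching body, a beating heart tube and a brain divided into regions, while its food is still the yolk. A thin sheet of nuclei and cytoplasm around the yolk, the yolk syncytial layer, packs yolk lipid into lipoproteins and sends it to the body. The embryo is wrapped in a keratin-rich skin, and a gland on its front makes the enzymes that will dissolve the egg envelope at hatching.

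RNA was measured with a 3' tag method, which is meant to read 1 end of each polyadenylated transcript. Values of different genes were therefore compared without a correction for transcript length. Whether they need one was not tested, so the ranking is by reads and need not be that of numbers of molecules. The deposited values are reads divided by a factor for each library, here called the value, and 1 read was worth 0.271 to 0.374 in the 6 libraries. The table held 13680 genes, of which the 2 mitochondrial ribosomal RNA genes took 35.4% to 49.5% of the reads and were left out, leaving 13678 genes with 1656890 to 2136242 reads per library. The number of reads outside the mitochondrial rRNA was 1956776 ± 163737 in offspring of fed and 2055019 ± 298640 in those of starved fathers (mean ± SD of 6 libraries each). An exact permutation test, two-sided and not paired by replicate number, gave p = 0.491 (adjusted over 3 such values 0.506).

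Replicates 4 and 5 stood apart from the other 4. Among the 4128 genes with a mean value of at least 20, both lay above all other libraries for 822 genes (19.9%) and both below for 888 (21.5%), together 41.4%. For the 14 other pairs of libraries that share was 7.49% to 21.9%. The SD of the log2 difference between 2 libraries ranged from 0.38 (replicates 1 and 2) to 0.76 (replicates 5 and 6, which share the code number), with 0.48 between replicates 4 and 5. The mitochondrial rRNA share was 45.6% in replicate 4 and 49.5% in replicate 5, against 35.4% to 42.7% in replicates 1 to 3 and 47.2% in replicate 6, and replicate 5 had the fewest reads outside it. The part of these measures in the results was not tested. For the sets of most abundant, most variable and most stable genes, the number of genes kept without replicates 4 and 5 is also given. Means of list shares are given over all 6 libraries only, with single libraries beside them for several lists. The sets looked at in the libraries of starved fathers are those chosen with all 6.

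The 100 most abundant transcripts of the embryo came mostly from genes of protein synthesis, and the tissue genes among them were of yolk lipoproteins, striated muscle and skin keratins. The 100 genes of highest mean value held 30.7% of the summed value, the 25 highest 13.6% and the 10 highest 7.83%. A total of 336 genes made 50% of the sum, while the median gene had a mean value of 9.01. Those with a mean of at least 20 (30.2% of the genes) held 89.1% of the sum. On either side of that limit were zyg11 at a mean of 20.0033 and smurf2 at 19.983.

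**Figure D1:**
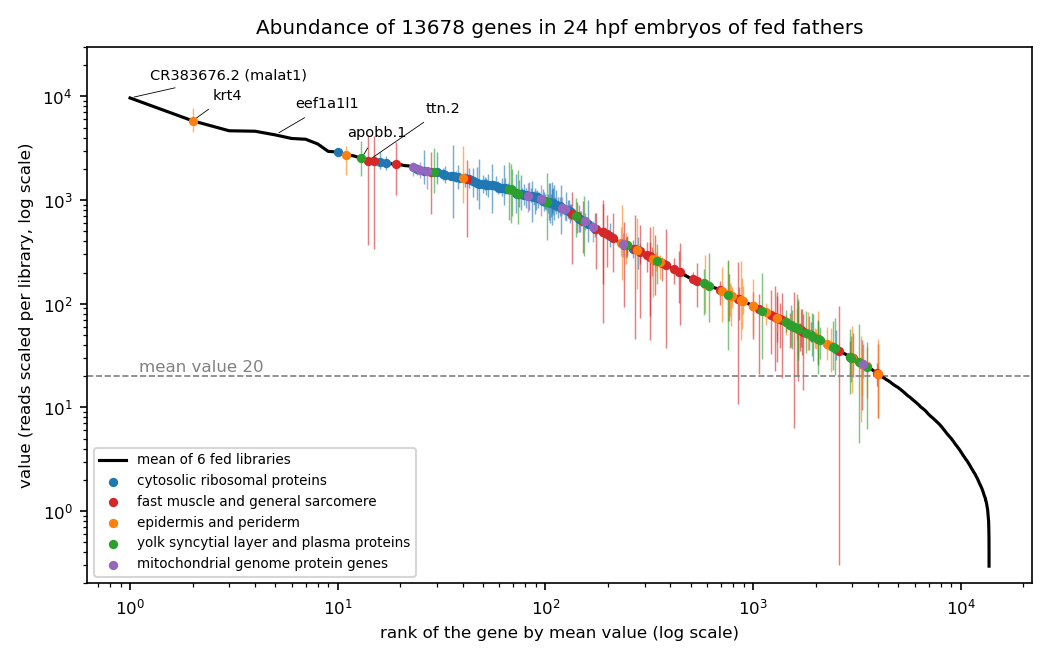
Mean value in the 6 libraries of fed fathers (log scale) against the rank of each of 13678 genes (log scale). Coloured points mark 5 gene lists above a mean value of 20 (dashed line), and vertical lines run from the lowest to the highest of the 6 libraries. Among the 100 highest ranks, 54 are ribosomal protein genes, and the line of the muscle gene ttn.2 runs from 372 to 4228.

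Of the 100 most abundant genes, 77 belonged to lists of functions that all cells share, 14 to lists of tissue genes and 9 to neither. Ribosomal protein genes alone were 54 of the 100. The others of shared function were 6 genes of nuclear RNA-binding and chromatin proteins, 5 translation factors, 5 protein genes of the mitochondrial genome, 4 cytoskeleton genes, 2 chaperones and 1 histone. The tissue genes were 6 of the yolk syncytial layer and plasma proteins, 5 of fast muscle and sarcomere and 3 of the epidermis. None of the lists of neurons, neural progenitors, blood, notochord, lens, heart or vessels had a gene among the 100. The top genes were compact: the median gene spanned 5.60 kb of the genome among the 100, against 18.1 kb among all genes.

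The gene of highest value was CR383676.2 (chromosome 14, bases 45631236 to 45638712, GRCz11), which a reference list of names pairs with malat1, a long non-coding RNA kept in the nucleus. Its values were 7170 at the lowest, 9073 at the median and 12717 at the highest, with a mean of 9668 ± 2473 (SD, n = 6). It ranked first in every library and took 1.64% of the summed value on average. The 2 highest libraries were replicates 5 and 6, at 12717 and 12572, and the other 4 were at 9691 or below.

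krt4 (chromosome 6, bases 39308498 to 39313027), a keratin of the embryonic surface skin, came next with 4493 at the lowest, 5629 at the median and 7717 at the highest value. It was the most abundant protein-coding gene with a role named here, and it was at rank 2 or 3 in every library. Replicate 5 was the highest and replicate 6 the lowest. The related skin keratin gene cyt1l had values of 1730, 2840 and 3313 (lowest, median, highest), again lowest in replicate 6. cyt1, another keratin gene, had 944, 1319 and 3299, with the highest value in replicate 5.

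Translation was represented by eef1a1l1, the elongation factor that brings amino acids to the ribosome, with values of 3711, 4202 and 5126 (lowest, median, highest). The poly(A)-binding protein gene pabpc1a lay at 2016, 2160 and 2586, and the elongation factor gene eef2b at 1538, 2120 and 2706. The SD of log2(value + 1) over the 6 libraries was 0.17, 0.14 and 0.27 for these 3 genes, against a median of 0.23 for genes with a mean of at least 1000. The ribosomal stalk protein gene rplp1 had 2726, 2932 and 3097, and an SD of 0.07. Its partner gene rplp2l had 2001, 2193 and 2908, with replicates 4 and 5 highest, and rps2 and rpl3 had mean values of 2260 ± 275 and 1999 ± 148 (SD, n = 6).

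Nuclear and chaperone genes were also near the top. The chaperone gene hsp90ab1 had values of 2684, 4150 and 4417 (lowest, median, highest), and ptmab, a prothymosin gene, had 2849, 3919 and 4702. The cold-inducible RNA-binding protein gene cirbpa had 2008, 2702 and 2990, the chromatin protein gene hmga1a 1615, 2324 and 2352, and the RNA-binding protein gene serbp1a 1746, 2179 and 2402. In all 5 of these replicate 5 was the lowest library. The actin-binding peptide gene tmsb4x went the other way, with its highest value of 5349 in replicate 5 and its lowest of 2030 in replicate 6.

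Of the genes with clone names among the 25, si:dkey-151g10.6 ranged from 2679 to 8191 and was highest in replicates 4 and 5. si:ch211-222l21.1 ranged from 3451 to 5469, with replicate 5 lowest. si:ch73-1a9.3, which the reference list pairs with hmgn1b, a nucleosome-binding protein gene, ranged only from 2842 to 3054. The remaining genes of the 100 outside the lists were si:ch73-281n10.2, afp4, slc25a5, igf2bp1 and pnrc2. They were named for completeness after their values were seen. The reference list pairs si:ch73-281n10.2 with hmgn1a. Lists were matched on the deposited symbols, so hmgn1a and hmgn1b were not counted in the list of nuclear RNA-binding and chromatin proteins. The gene slc25a5, the carrier that exchanges ADP and ATP across the mitochondrial membrane, had a mean of 1023 ± 80.8 (SD, n = 6).

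The muscle genes near the top were the least even. Titin, the giant spring protein of the sarcomere, is encoded in zebrafish by ttn.2 and ttn.1, side by side on chromosome 9. ttn.2 had 2616, 3288 and 4228 in replicates 1 to 3, 372 in replicate 4, 705 in replicate 5 and 3187 in replicate 6. ttn.1 had 2603, 3306 and 4149, then 333, 644 and 3323 in the same order. In both genes replicates 4 and 5 lay far below the other 4, whose values did not overlap with theirs. The skeletal and cardiac actin gene actc1b had 1128, 2310 and 3607 (lowest, median, highest), and the fast myosin light chain gene mylpfa 734, 2106 and 2891. The calcium pump gene atp2a1 had 438, 1801 and 2458. Again replicates 4 and 5 were the 2 lowest for each of these 3 genes. In bulk RNA of whole embryos, fewer cells of a type and less RNA per cell cannot be told apart, here and for each tissue below.

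The lipoprotein genes had the opposite pattern over the libraries. apobb.1, which encodes the large scaffold protein of lipoproteins, had 1726, 2454 and 3729 (lowest, median, highest), and apoc1, a small apolipoprotein gene, 1183, 1688 and 3181. apoa1b had 644, 1106 and 2305. For apobb.1 replicates 4 and 5 were the 2 highest, and replicate 5 was the highest for apoc1. Protein genes of the mitochondrial genome were steadier: mt-co1, mt-co2 and mt-co3, subunits of the last respiratory complex, had means of 2071 ± 214, 1935 ± 253 and 1904 ± 303 (SD, n = 6).

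The ranking was steady between libraries. Of the 100 genes, 86 to 95 were in the top 100 of each single library and 68 in the top 100 of all 6. By the mean of the starved fathers' libraries, which did not enter the ranking, 91 of the 100 and 23 of the 25 were again in the top 100 and the top 25. The edges of the choices were close: the lowest mean in the top 100 was 962, with 958 for the gene below it, and mt-co2 at rank 25 was followed by 1 of 2 genes named rpl37, at 1918. The share of the 100 most abundant genes of each library by itself was 31.2 ± 1.68% in offspring of fed and 30.6 ± 1.03% in those of starved fathers (mean ± SD of 6 libraries each), with p = 0.463 by the same exact permutation test (adjusted 0.506). The number of genes that made 50% of the sum was 326 ± 35.1 and 339 ± 23.5 (p = 0.506 by the same exact permutation test, adjusted 0.506). Both values stood out in replicates 4 and 5, with 302 and 269 genes and shares of 32.6% and 34.0%, against 338 to 368 genes and 29.9% to 30.6% in the other 4 libraries.

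The lists of genes were then summed. Together 22 tissue lists held 11.8% of the summed value, 12 lists of shared functions 36.4% and genes in no list 51.8%. The lists name well-known genes only, so a tissue's share is that of its listed genes, and not the tissue's part of the embryo. Marker genes of tissues that an embryo of this age has were also counted. The lists were written with earlier results of these data known, so the counts are a description and do not test the age on the label. Listed genes that are not among the 13678 ranked are left out of these and all other list counts. For fast muscle, 57 of 82 genes had a mean of at least 20, and for yolk and plasma 31 of 33. The counts were 37 of 48 for skin, 24 of 54 for neurons and 14 of 27 for blood. They were lower for heart (5 of 14), lens (5 of 33), vessels (1 of 23) and eye (1 of 15). Early myeloid cells had 1 of 11 and the tail bud 1 of 9. The 2 germ cell genes among the 13678 were nearly absent, with mean values of 2.93 for gra and 1.19 for ddx4. None of 6 genes of the endodermal organs reached 20.

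By the mean over the 6 libraries, fast muscle held the largest share among the tissue lists (3.75%), but in replicates 4 and 5 it held less than the skin and the yolk lists. Its 82 genes held 4.04%, 4.74% and 6.05% of the summed value in replicates 1 to 3, 1.47% in replicate 4, 1.76% in replicate 5 and 4.42% in replicate 6. Replicates 4 and 5 lay below the other 4 by more than the range of those 4, and 44 of the 57 genes with a mean of at least 20 were lowest in both, against 21.5% of all such genes. In the libraries of starved fathers the share ran from 2.64% to 6.03%, with replicate 4 again the lowest. The slow muscle genes, 9 in number, held 0.14% to 0.25%, led by the slow myosin heavy chain gene smyhc1 (340, 617 and 764 at the lowest, median and highest). The transcription factors of the muscle lineage held 0.05% to 0.10%, with replicates 4 and 5 the 2 lowest libraries (0.063% and 0.053%). Of their 6 genes with a mean of at least 20, replicates 4 and 5 were both lowest for 4 and both highest for none. Over all such genes the shares were 21.5% and 19.9%. myod1, which commits cells to muscle, was not among these 4. It had a range of 24.9 to 30.2 and replicates 4 and 5 inside the range of the others.

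The skin list of 48 genes held 1.83% to 3.40%, of which krt4 alone made 39.5% and replicate 5 was the highest library. Of its 37 genes with a mean of at least 20, replicates 4 and 5 were both highest for 19 and both lowest for none, against 19.9% and 21.5% of all such genes. Among skin genes outside the top 100, krt5, a basal keratin, ranged from 286 to 553, and icn, an ictacalcin gene, from 168 to 895. The most variable of the skin genes was krt17, with 61.0, 44.5 and 48.3 in replicates 1 to 3, 191 and 257 in replicates 4 and 5, and 45.5 in replicate 6.

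The yolk syncytial layer and plasma proteins (33 genes) held 2.43%, 1.45% and 1.54% in replicates 1 to 3, 3.10% and 3.50% in replicates 4 and 5, and 1.56% in replicate 6. The highest libraries were thus replicates 4 and 5, followed by replicate 1. Replicates 4 and 5 were both highest for 23 of 31 genes and both lowest for none, against 19.9% and 21.5% of all genes with a mean of at least 20. In the libraries of starved fathers the list held 0.75% to 2.58%. There replicate 4 was the highest, but replicate 5, at 1.08%, was below all others except replicate 2. The hatching gland list (8 genes) held 0.11% to 0.19% in 4 libraries and 0.40% and 0.61% in replicates 4 and 5. Its main genes he1.2 and he1.1, the hatching enzymes, had mean values of 706 ± 489 and 498 ± 445 (SD, n = 6). he1.1 had 193, 203 and 252 in replicates 1 to 3, 787 and 1283 in replicates 4 and 5 and 270 in replicate 6. In the starved fathers' libraries the hatching gland list held 0.12% to 0.29%, with replicate 4 the highest.

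Blood genes (27) did not follow this division. The list held 0.96% in replicate 1, 0.57% in replicate 2, 0.94% in replicate 3, 0.33% in replicate 4, 0.54% in replicate 5 and 0.33% in replicate 6. Replicates 1 and 3 were the high ones. The embryonic globin genes hbbe3 and hbae3 led it, with 313, 735 and 1104 and with 317, 632 and 1135 (lowest, median, highest). The enzyme of the opening step of haem synthesis, alas2, had 19.7 ± 9.97, and the erythroid transcription factor gata1a 4.18 ± 1.79 (SD, n = 6).

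Genes of the nervous system held less. Neural progenitor genes made 0.45% to 0.73% and neuronal genes 0.31% to 0.59%, and for both replicates 4 and 5 were the 2 lowest libraries. The growth factor gene mdka, of the progenitor list, had a mean of 628 ± 44.9 and was even between libraries. The RNA-binding protein genes nova2 and elavl3, which mark neurons, had 339, 598 and 706 and 177, 396 and 548 (lowest, median, highest). Of the 24 neuronal genes with a mean of at least 20, replicates 4 and 5 were both lowest for 20 and both highest for none. Over all such genes the shares were 21.5% and 19.9%. Of the 34 lists, that of lens genes, mostly crystallins, had the highest ratio of the highest to the lowest library (11.8): 0.08%, 0.07% and 0.12% in replicates 1 to 3, 0.01% and 0.02% in replicates 4 and 5, and 0.06% in replicate 6. The lens share ran from 0.01% to 0.10% in the libraries of starved fathers, with replicate 4 the lowest.

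**Figure D2:**
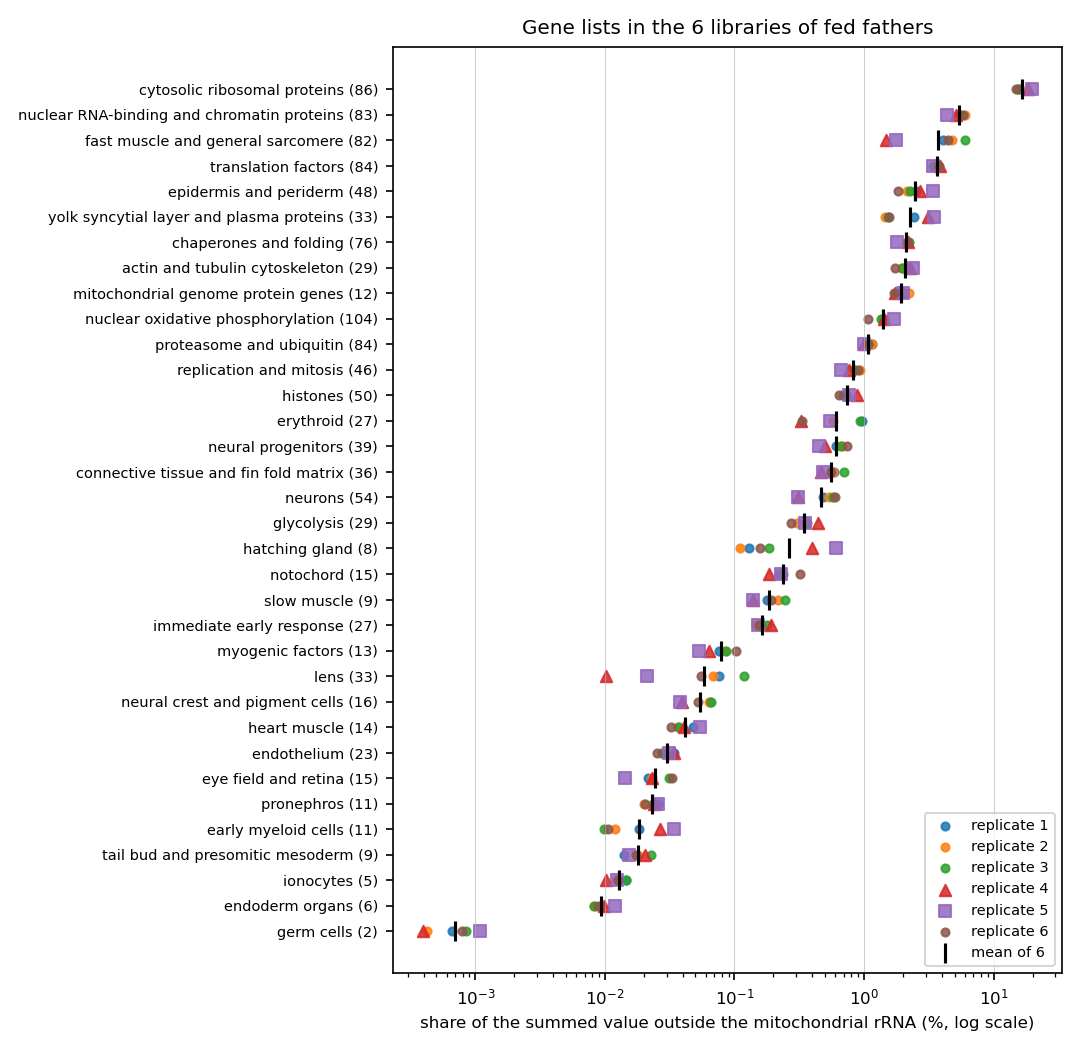
Share of the summed value (%, log scale) of 34 gene lists in each of the 6 libraries of fed fathers. The number of listed genes among the 13678 ranked stands in brackets, symbols are libraries and black bars the means. Replicates 4 (triangles) and 5 (squares) lie to the left for fast muscle (1.47% and 1.76%), lens and neurons and to the right for yolk, hatching gland (0.40% and 0.61%) and ribosomal proteins.

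Other tissue lists were small. Early myeloid genes held 0.02%, 0.01% and 0.01% in replicates 1 to 3, 0.03% in replicates 4 and 5 and 0.01% in replicate 6, with a ratio of 3.45 between the highest and the lowest library, and ctss2.1, a cathepsin S gene, made 47.6% of the list. The eye list held 0.0142% to 0.0328%, lowest in replicate 5 and highest in replicate 6. Collagens and other matrix genes held 0.46% to 0.70%, led by col1a1a (mean 473 ± 143), and the notochord list 0.18% to 0.32%, led by the cartilage collagen gene col11a1a (480 ± 59.2; SD, n = 6). Heart muscle genes held 0.03% to 0.05%, with myh7 at 59.6 ± 17.0 the highest of them. Vessel genes made 0.03% in all 6 libraries, and cdh5, the adhesion protein of vessel walls, was the highest of them with 36.0 ± 10.3. Pigment and neural crest genes held 0.04% to 0.07%, led by the pigment enzyme gene gch2 with values from 44.3 to 118. For pigment genes, too, replicates 4 and 5 were the 2 lowest.

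Among the shared functions, the 86 cytosolic ribosomal protein genes held 15.7%, 16.0% and 15.3% in replicates 1 to 3, 18.6% and 19.7% in replicates 4 and 5, and 14.9% in replicate 6. For 62 of the 85 with a mean of at least 20, replicates 4 and 5 were both highest, and for 1 both lowest. Over all such genes the shares were 19.9% and 21.5%. The same division was seen in the libraries of starved fathers, at 18.0% and 18.9% in replicates 4 and 5 and 14.0% to 16.3% in the other 4. Nuclear RNA-binding and chromatin proteins held 4.35% to 6.01% with replicate 5 lowest, translation factors 3.41% to 3.89%, chaperones 1.81% to 2.24% and cytoskeleton genes 1.74% to 2.37%. Protein genes of the mitochondrial genome held 1.69% to 2.21% and nuclear genes of oxidative phosphorylation 1.07% to 1.70%. Replication and mitosis genes held 0.66% to 0.92%, led by mki67, a marker of dividing cells, with 454 ± 102 (SD, n = 6). Immediate early genes, which rise within minutes of handling or stress, held 0.15% to 0.19%. btg1 alone made 48.8% of that list, and 8 of its 27 genes had a mean of at least 20. fosab, the best known gene of the list, was at 0.29 to 6.85.

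Spread between libraries was then taken as the SD of log2(value + 1) over the 6 libraries, for the 4128 genes with a mean of at least 20. Its median was 0.32, where counting of reads alone gives 0.12. For 3238 genes (78.4%) it was over 2 times the SD that counting gives. It was over 0.5 for 723 genes and over 1 for 58. The median fell from 0.35 for genes with means between 20 and 50 to 0.23 for those of 1000 and above. In the 6 libraries of starved fathers the median over the same genes was also 0.32.

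**Figure D3:**
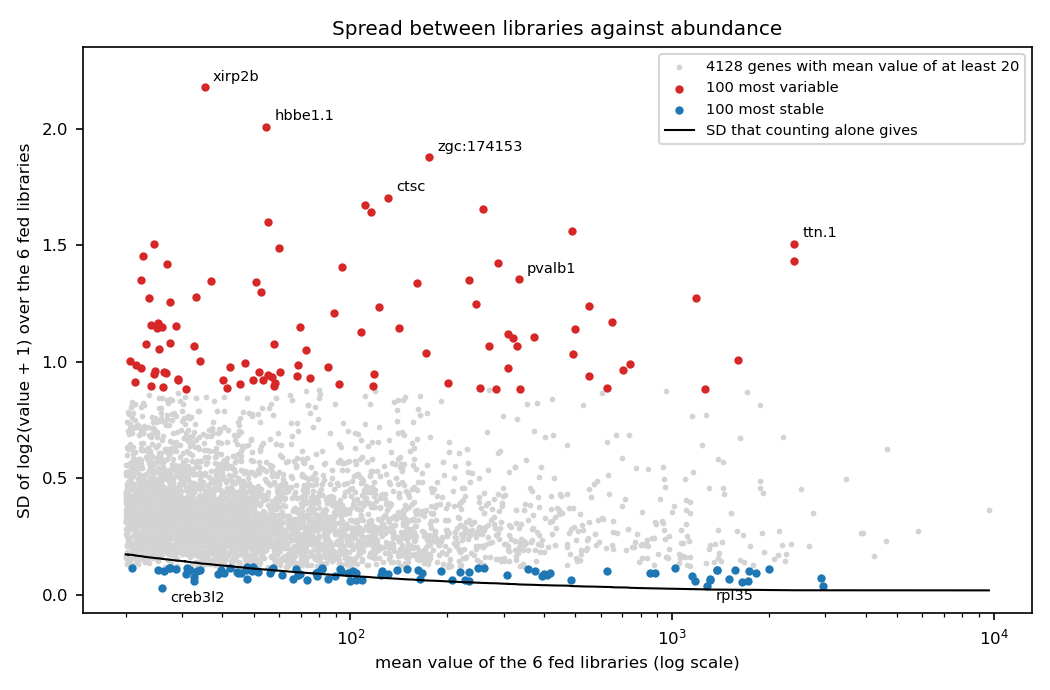
SD of log2(value + 1) over the 6 libraries of fed fathers against the mean value (log scale) of 4128 genes, with the 100 most variable genes in red, the 100 most stable in blue and the SD that counting alone gives as a line (running median). The red points run from an SD of 0.88 to 2.18 and up to a mean of 2399, and many blue points of low abundance lie below the counting line.

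The 100 genes of highest spread, with an SD of 0.88 to 2.18, were chosen by this value, which is therefore given as a description. Of these, 46 were in tissue lists, 5 in lists of shared functions and 49 in none, while the 4128 genes included 260 tissue genes (6.30%) and 518 of shared functions (12.5%). Fast muscle gave 22 of its 57 genes with a mean of at least 20, yolk and plasma proteins 8 of 31 and lens 5 of 5. Hatching gland gave 3 of 4, blood 3 of 14 and skin 3 of 37, where the 100 are 2.42% of the 4128. This breakdown changed without replicates 4 and 5, as given further on. Replicates 4 and 5 were both highest for 51 and both lowest for 41 of the 100, against 19.9% and 21.5% of the 4128. A choice for high spread favours genes that differ between libraries that stand apart, so nothing is read from these counts. The boundary was narrow, with a globin gene named hbae1.3 at 0.881 as the last chosen and the translation factor gene eif4a1a at 0.880 as the next.

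The muscle genes of this group encode the contractile machine. xirp2b, an actin-binding gene of striated muscle, had the highest SD of all (2.18), with 46.5, 26.1 and 95.1 in replicates 1 to 3, 0.30 in replicate 4 (1 read), 10.1 in replicate 5 and 33.2 in replicate 6. The fast myosin heavy chain gene myhz1.2 had 107, 166 and 255, then 10.8 and 27.7, then 101. Its copy myhz1.1 had 579, 627 and 992, then 65.7 and 115, then 549. In all 3 genes replicate 3 was the highest and replicate 4 the lowest library. The same order held at the ends for ttn.1, ttn.2, ryr3 (a calcium release channel, 6.33 to 129), myhz2 (44.6 to 548), tnnt3b (fast troponin T, 37.7 to 522) and pvalb1 (the calcium-binding protein parvalbumin, 45.2 to 711). The myosin genes myhz2, myhz1.3, myhz1.2 and myhz1.1 lie together within bases 32206378 to 32309129 of chromosome 5 as similar copies, among which reads may have been divided wrongly, so the value of each is uncertain.

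Lens genes were also lowest in replicate 4. The crystallin gene crybb1 had 67.2, 67.9 and 129 in replicates 1 to 3, 7.53 and 9.73 in replicates 4 and 5, and 52.5 in replicate 6. cryba1b had 33.5, 35.6 and 32.8, then 1.51 (5 reads) and 15.4, then 28.8. Crystallins are the transparent proteins that fill lens fibres. All 5 lens genes with a mean of at least 20 were among the 100, with replicates 4 and 5 both lowest in each.

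After the globin gene hbbe1.1, described with its neighbours further on, the highest SDs among genes high in replicates 4 and 5 were those of zgc:174153, ctsc and zgc:174855. zgc:174153 had 21.9, 41.5 and 49.7 in replicates 1 to 3, 405 and 496 in replicates 4 and 5, and 42.6 in replicate 6. zgc:174855 had 71.1, 59.2 and 62.0, then 523 and 752, then 87.2. ctsc, the protease cathepsin C, had 52.1, 19.6 and 36.0, then 419 and 221, then 34.9. For these the other 4 libraries stayed within a narrow band below 90. mgst1.2, a glutathione transferase gene of membranes, had 5.28 to 17.8 in 4 libraries and 40.7 and 55.4 in replicates 4 and 5.

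Several of the variable genes lay side by side. Of the 100, 33 fell into 13 groups of neighbours less than 100 kb apart. The same count was not made for other genes, so whether variable genes lie together more often than others is not known here. Chromosome 12 held 2 such groups of 4 genes, at bases 16555603 to 16636627 and 16874645 to 16951851, and in all 8 replicates 4 and 5 were both highest. These include zgc:174153, zgc:174855 and 1 of 3 genes named ctslb, a cathepsin L of the hatching gland, with 109 to 196 in 4 libraries and 443 and 818 in replicates 4 and 5. Other neighbours were the hatching enzyme genes he1.1 and he1.2, the keratin genes krt92 and krt17, a pair of genes both named afp4, the antiproteases serpina1 and serpina1l, the parvalbumins pvalb4 and pvalb1, the crystallins crybb1 and cryba4, and the titins. Many of these are similar copies, and how the counting treated reads that 2 copies share is not known here.

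The globin genes had a pattern of their own. hbbe1.1, an embryonic beta globin gene on chromosome 3, had an SD of 2.01, with 44.1, 54.0 and 1.43 (5 reads) in replicates 1 to 3 and 130, 70.4 and 27.3 in replicates 4 to 6. Replicate 3 was by far its lowest library and replicate 4 its highest. Its neighbours moved otherwise: the gene named hbae1.3 of higher mean had 749, 664 and 1214 in replicates 1 to 3 and 113, 256 and 313 in replicates 4 to 6, with the ends exchanged. hbbe1.3 had 1054, 488 and 1024, then 242, 519 and 311. In the libraries of starved fathers hbbe1.1 was again lowest in replicate 3, at 16.9 against 48.4 to 176. Globin genes resemble each other closely, and the value of each is uncertain for the same reason.

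**Figure D4:**
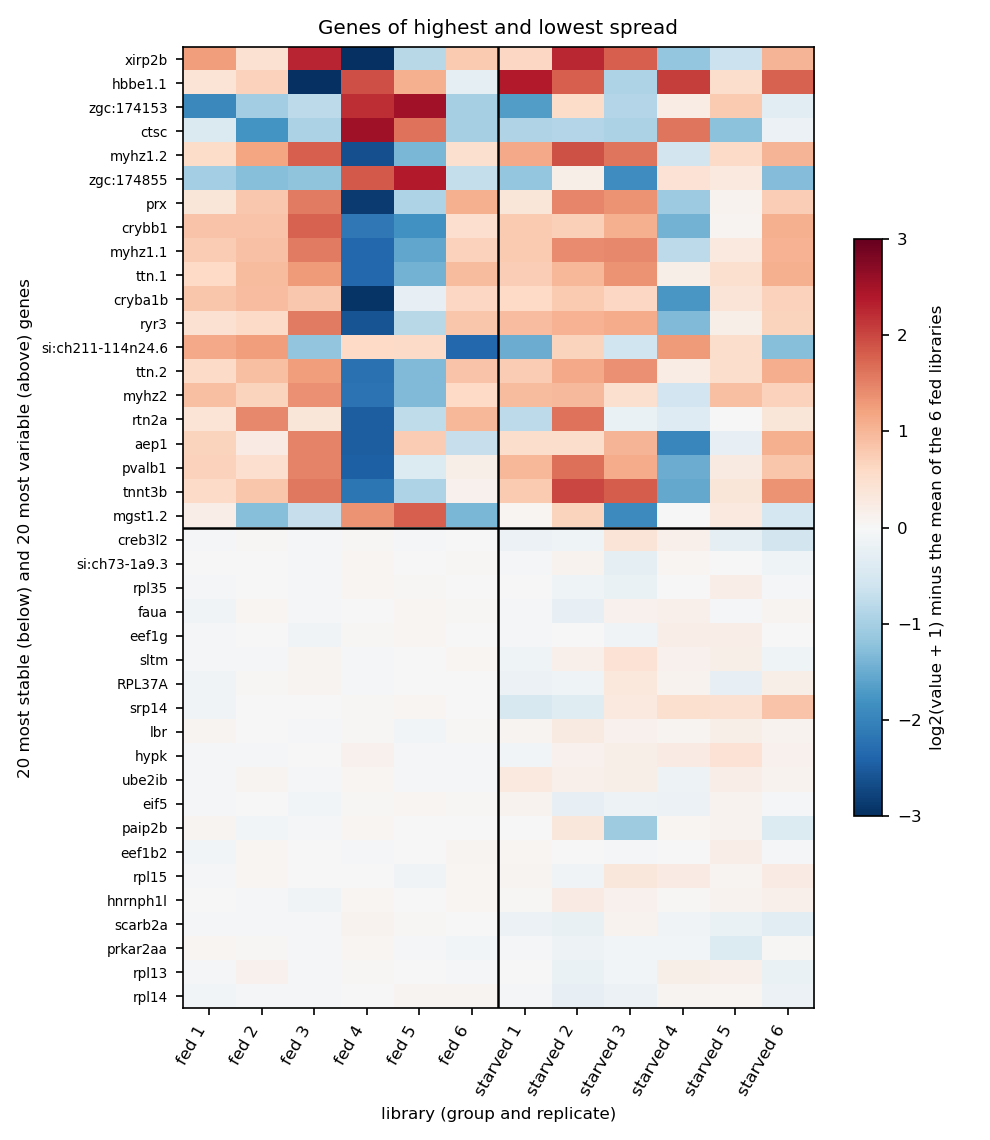
log2(value + 1) minus its mean over the 6 fed libraries, for the 20 genes of highest (upper rows) and the 20 of lowest SD (lower rows), in all 12 libraries; colours are capped at the ends of the scale. In the upper rows replicate 4 of the fed group is the lowest library for 14 of 20 genes, and over all 4128 genes for 716. The 20 were chosen for their spread over the same values, so nothing is read from this. In the lower rows the SD over the fed libraries is 0.03 to 0.07.

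Without replicates 4 and 5, the most variable genes were largely others. The median SD over the same 4128 genes was 0.24, and 32 of the 100 highest were again among the 100 when the other 4 libraries were used (27 when the limit of 20 was also set on those 4). The original 100 had a median SD of 0.50 in those 4 libraries. The leading genes then were hbbe1.1 (2.08) and si:ch211-114n24.6 (1.78), followed by a gene with a clone name, by serpinh1b, a collagen chaperone, and by ambp, a plasma protein gene. These were named after their values were seen. serpinh1b had 65.2, 59.5 and 276 in replicates 1 to 3 and 54.9 in replicate 6. Tissue genes were 27 of the 100 in place of 46. With the limit of 20 on all 6 libraries, the fast muscle list then gave only xirp2b and myhz1.2, and the hatching gland list gave none. Blood genes were more frequent than before, among them the globin genes hbbe1.1, hbbe1.2, hbbe1.3, hbbe2, hbbe3 and hbae3.

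The 100 most stable genes had an SD of 0.03 to 0.12, and for 41 of them this was below the SD that counting of reads alone gives. Of the 100, 29 were in lists of shared functions, 2 in tissue lists (mdka and myod1) and 69 in none, where the shares over all 4128 genes are 12.5%, 6.30% and 81.2%. Of the 29, ribosomal proteins gave 11, nuclear RNA-binding and chromatin proteins 5, and translation factors 4. These lists had 85, 75 and 59 genes among the 4128. By the SD, rpl14 at 0.0687 was the last of the 20 most stable genes and txnrd3 at 0.0690 the next. Ranked instead by the squared coefficient of variation less its counting part, the 100 most stable genes held 10 of shared functions. Without replicates 4 and 5, and with the limit of 20 set on the other 4 libraries, 23 of the 100 most stable by the SD were kept.

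creb3l2, a transcription factor of the secretory pathway, had the lowest SD (0.03), with values of 25.4, 25.8 and 26.6 (lowest, median, highest) from 68 to 98 reads. Counting alone gives 0.15 at that depth, and the SD in the libraries of starved fathers was 0.33. srp14, a part of the signal recognition particle, ranged from 30.2 to 34.1 here and from 23.0 to 59.6 in the libraries of starved fathers. paip2b, a regulator of poly(A)-binding protein, ranged from 103 to 115 here and from 51.8 to 139 there.

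Of the 329 genes with a counting SD of at most 0.05, 99 (30.1%) were ribosomal protein or translation factor genes, and of the 30 most stable of these 329 genes, 14 were. si:ch73-1a9.3 had an SD of 0.04 at a mean of 2949 ± 75.7, rpl35 0.04 at 1287 ± 34.8, and faua, which encodes a fusion of a ubiquitin-like and a ribosomal protein, 0.06 at 1650 ± 64.0 (SD of values, n = 6). The elongation factor genes eef1g (median 1188) and eef1b2 (455 to 510) were close behind. So was the initiation factor gene eif5 (195 to 217), which is not among the 329. RPL37A ranged from 1605 to 1804, rpl15 from 1224 to 1379, rpl13 from 1429 to 1629 and rpl14 from 1249 to 1397. For these ribosomal and elongation factor genes counting gives an SD of 0.02 to 0.04, less than was seen. The stable genes that follow lie away from translation and outside the 329. lbr, a receptor of the inner nuclear membrane, ranged from 220.5 to 246, and ube2ib, a SUMO-conjugating enzyme, from 100 to 111. hnrnph1l, an RNA-binding protein, ranged from 68.5 to 77.1, and prkar2aa, a regulatory subunit of protein kinase A, from 155 to 173. scarb2a, a lysosomal membrane protein, ranged from 45.6 to 51.5, hypk from 221 to 247 and sltm from 96.1 to 105. Of the 20 most stable genes, 7 had an SD below the counting SD, so read depth limits what their low spread shows. Replicates 4 and 5 were neither both highest nor both lowest in 16 of the 20, against 58.6% of all 4128 genes. A choice for low spread favours this, so nothing is read from it.

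The choice of stable and of variable genes was then looked at in the 6 libraries of starved fathers, which it did not use. The 100 most variable genes had a median SD of 0.79 there, against 0.32 for all 4128. Of the 100, 36 were among the 100 most variable of those libraries (2.42% of all genes are), and 89 were in the upper 25% of spread. The 100 most stable genes had a median SD of 0.18, and 11 of them were among the 100 most stable there (2.42%) and 66 in the lower 25%. The 11 included lbr, eef1b2, hnrnph1l and rplp1, with an SD in the libraries of starved fathers of 0.07, 0.09, 0.08 and 0.11. ttn.1 and ttn.2 had an SD of 0.43 and 0.42 there, in place of 1.51 and 1.43, and cryba4, a crystallin gene, had 1.66 in place of 1.34.

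**Figure D5:**
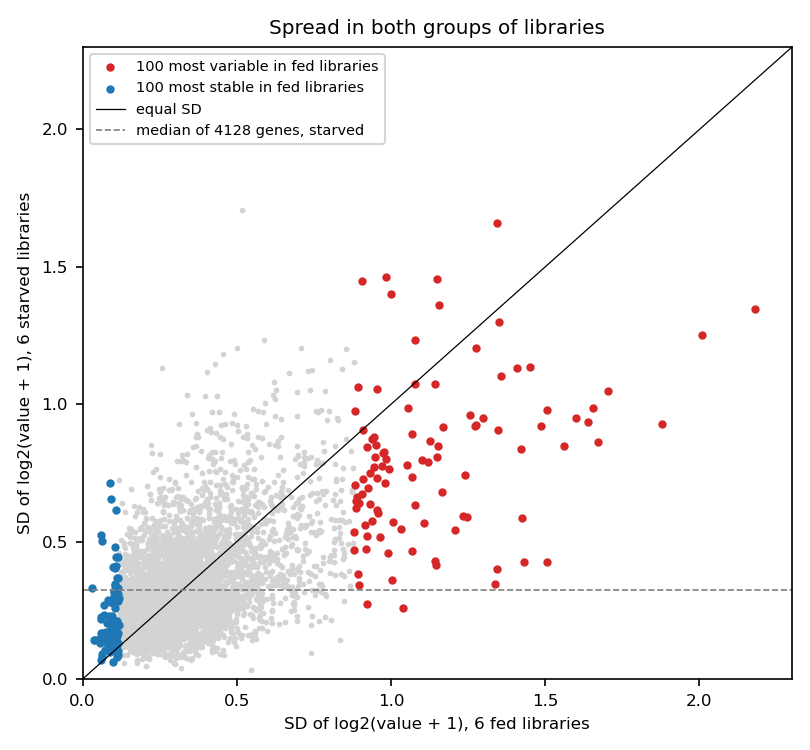
SD of log2(value + 1) over the 6 libraries of starved fathers against that over the 6 of fed fathers, for 4128 genes (grey), the 100 most variable (red) and the 100 most stable (blue) in the libraries of fed fathers. Most red points lie above the dashed median of 0.32 and below the line of equal SD, with a median of 0.79; the blue points have a median of 0.18.

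The 2 groups of libraries are not separate in one respect. Same-numbered libraries of fed and starved fathers deviated from their group means together, with a correlation across 4112 genes of 0.17 to 0.61 over the 6 numbers, the highest for replicate 4. Of the 41 variable genes for which fed replicates 4 and 5 were both lowest, starved replicates 4 and 5 were both lowest for 30, against 8.31% of all genes. Of the 51 for which they were both highest, starved replicates 4 and 5 were both highest for 17, against 10.1% of all genes. The spread in the libraries of starved fathers is thus not fully independent of that in the libraries of fed fathers.

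Against the offspring of starved fathers, these genes showed no difference that passed the test without a block. limma on log2(value + 1) called 0 of 13680 genes (0%) at an adjusted p below 0.05, with 758 at an unadjusted p below 0.05, and edgeR and DESeq2 on recovered reads also called 0, with 649 and 754 (DESeq2 left 3 adjusted p-values empty). The smallest adjusted p in limma among the 100 most abundant genes was 0.775. Of all 13680 genes, 6567 (48.0%) had the higher mean in the starved group, and of the 100 most abundant 50 had. The median log2 difference of these 100 was -0.0002, against -0.0144 over all genes. Among the 100 most variable, 42 were higher, with a median of -0.11, and among the 100 most stable 55, with a median of 0.0039. These medians depended on single libraries. For the abundant genes the median ran from -0.05 (without starved replicate 5) to 0.06 (without starved replicate 3). For the variable genes it was -0.01, -0.19 and -0.24 without fed replicate 5, 3 and 6, and -0.04, -0.23 and -0.17 without starved replicate 3, 4 and 5. edgeR and DESeq2 gave -0.27 and -0.26 for the variable genes. For the stable genes it ran from -0.0055 (without starved replicate 1) to 0.0233 (without starved replicate 3), so no direction is read from any of the 3.

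With the replicate number as a block, which takes out what same-numbered libraries share, limma called 39 genes (0.285%), of which 8 were higher and 31 lower in the starved group. It called 4 of the 100 most abundant, the apolipoprotein genes apoa1b, apoa2, apoa1a and apoc1, all lower in offspring of starved fathers. apoa1b had 644, 1106 and 2305 (lowest, median, highest) in offspring of fed fathers and a mean of 1277 ± 678 against 699 ± 424 (SD of 6 libraries each), a log2 difference of -0.89 (adjusted p = 0.00507 with the block, 0.845 without). Among the 100 most variable it called 13, some lower and some higher in offspring of starved fathers. The smallest adjusted p was that of ctss2.1, which was lower (log2 difference -1.90, adjusted p = 0.000497 with the block, 0.775 without). Those higher included tnnt3b (log2 difference 0.80, adjusted p = 0.00683 with the block, 0.901 without) and hbbe1.1 (1.27, 0.0208 and 0.885). Among the 100 most stable it called 0, with a smallest adjusted p of 0.487. The members were chosen on values of the libraries of fed fathers, which are also an arm of this comparison, so nothing is read from these shares.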

How the data were processed

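Libraries of 24 hpf embryos were made with the QuantSeq 3' kit (forward) and sequenced on a NextSeq, per the labels' protocols. The submitters' processing notes name STAR, edgeR and the build GRCz11 (danRer11). How reads were counted, with which versions, strand setting and filter on genes, is not stated by the labels. The deposited signal is a scaled read count, as found from the values: 100% were whole reads to a tolerance of 0.03 (at most 0.0216 off) once divided by what 1 read is worth in the library. Reads were recovered in this way. The deposited log2 fold change and the deposited adjusted p-value of the authors were not used. The 12 libraries were assigned to groups by their titles; no columns of other libraries were present. No library was a duplicate (chi-square of reads per degree of freedom 5.65 to 21.3 within groups, genes with at least 10 reads).

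Genes were ranked by the mean value without the mitochondrial rRNA. Spread was the SD of log2(value + 1) for means of at least 20; the counting SD is a Poisson approximation from recovered reads, which covers counting error only. PCR copies are not independent molecules, so it may be too small. Groups were compared with limma 3.58.1 (R 4.3.3, trend, Benjamini-Hochberg, threshold 0.05) over all genes, with edgeR 4.0.16 and DESeq2 1.42.0 as alternatives, and single values by exact permutation over 924 arrangements. The scripts were tested on simulated data. Log2 differences on this scale understate changes of low genes.

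Same-numbered libraries share a code in their descriptions and deviated together in all 6 pairs (correlation over 0.1). Of the 6 fed libraries, 4 correlated best with the starved library of their own number. Only the limma alternative with the replicate block used these pairs. The main limma test, edgeR, DESeq2 and the permutation tests ignored them. Named genes were the 25 most abundant, the 20 most variable and 20 most stable, those on either side of the limits, and in each list the 3 of highest mean and the most variable; the text gives those that its statements turn on. Of 13680 identifiers, 13388 were in the reference list of names, used for clone names only; 105 names repeat. The members, lists and tests were chosen with earlier results of these data known.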

Additional observations from a re-analysis of the deposited data

Results flagged for a closer look

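Of 201 sets of 6 values tested in the libraries of fed fathers (named genes and list shares), 12 had a highest or lowest library farther from the rest than Dixon's test allows at 95%, where chance flags about 1 in 20 groups. In replicate 5 the chaperone gene hsp90ab1 was at 2683.5 against 4002 to 4416.5 in the other libraries, cirbpa at 2007.5 against 2618.5 to 2989.7 and hmga1a at 1615.2 against 2222 to 2352.2. The share of the chaperone list in replicate 5 was 1.8075% against 2.136% to 2.2353%. Replicate 4 was low for the lens gene cryba1b (1.51 against 15.35 to 35.56), for the pigment gene tyrp1b (8.43 against 22.09 to 37.32) and for ca2, a carbonic anhydrase gene of ionocytes (0.3 against 2.05 to 4), and high for the immediate early gene ier5 (117.47 against 54.55 to 59.45). In replicate 6 mt-co3 was at 1291.1 against 1973.5 to 2087.6 and the heart myosin light chain gene myl7 at 12.91 against 28.01 to 42.3. In replicate 2 the replication clamp gene pcna was at 471.55 against 394.59 to 418.26. In replicate 1 the somite gene meox1 was at 10.07 against 17.32 to 20.78. Replicates 4 and 5 account for 8 of the 12. The genes tested include those chosen for high spread, and hsp90ab1 made 31.5% of the chaperone list. Nothing is read from this count.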

How the results depend on the processing

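The abundance ranking kept 96 to 100 of its 100 genes when each library was left out in turn, and the share of the 100 genes was 30.2% to 31.0%. With the mitochondrial rRNA kept it was 60.6%. The stable and variable sets moved more. Of the 100 most variable genes, 53 were kept with a minimum mean of 10, 62 with 50 and 27 with none, and 66 (without replicate 4) to 94 with a library left out. With no minimum, 27 of them were tissue genes. Of the 100 most stable, 48 (without replicate 5) to 73 were kept with a library left out, and 50 with replicates 5 and 6 averaged. With reads scaled to the same sum outside the mitochondrial rRNA, 66 were kept. By the squared coefficient of variation less counting 55 were kept, and 10 rather than 29 were shared-function genes. Without both replicates 4 and 5, an alternative added after seeing the data, 95 of the 100 most abundant genes were kept. The 100 most abundant then held 53 ribosomal protein genes and 13 tissue genes. In the same alternative 27 variable and 23 stable genes were kept, and 27 variable genes were in tissue lists. The causes were not tested. For genes called in the comparison of starved with fed fathers, the replicate block, which uses the pairing of same-numbered libraries, gave 39 against 0, and the other alternatives, each library left out included, gave 0. Depth limits the stable set, since 41 of its 100 SDs lay below the counting SD. The difference in reads outside the mitochondrial rRNA, starved minus fed, changed from 98243 to -19868 with replicates 5 and 6 averaged, neither past the test. The value of -19868 is not valid, because the averaged library entered it with almost no reads. Replicates 5 and 6 had 1656890 and 1912973 such reads in the fed group, and 1770947 and 2487765 in the starved group. No change of direction is therefore read from it. The medians of log2 differences that changed sign with single libraries left out stand with the comparison.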
